A study of Mus musculus with 9 samples.

Results

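S100a5, Pcp4l1, Fos, Egr1, Junb, Nr4a1 and Arc are 7 activity-dependent genes, picked by symbol from the 55291 genes of the expected-count table. S100a5 and Pcp4l1 are 2 slow markers of sensory neuron activity and the other 5 are immediate early genes. All 7 were detected in each of the 9 mice and all 7 were among the 23225 genes with enough counts to be tested.

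The mice were 8 to 12 weeks old and C57BL/6 in background, and the main olfactory epithelium was taken whole for RNA sequencing. There were 3 wild-type mice, 3 Ms4a cluster knockout mice (Ms4a cluster-/-, the Ms4a genes removed with CRISPR/Cas9) and 3 Ms4a6c knockout mice (Ms4a6c-/-, made by homologous recombination). The Ms4a genes encode membrane proteins studied here as odor receptors of small neuron populations. The same 3 wild-type mice were the controls of both knockouts, and no odor exposure is given for these mice.

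Olfactory sensory neurons turn odor binding into a rise of cAMP and calcium, and both second messengers reach the nucleus through kinases and the transcription factor CREB. Immediate early genes such as Fos and Egr1 are transcribed within minutes of such a signal and their messages decay quickly. S100a5, a calcium-binding protein, and Pcp4l1, a relative of the calmodulin regulator Pcp4, follow sensory input over days and are used as markers of how active mature olfactory sensory neurons have been.

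Libraries held 13954591 to 21987174 expected counts, and levels are given as CPM, the count relative to the library size after TMM scaling, a correction for libraries whose reads are taken up by a few genes. That correction mattered in 2 libraries, wild-type mouse 1 and Ms4a cluster knockout mouse 2, whose TMM factors were 0.70 against 1.07 to 1.13 in the other 7. In both, 9 nasal gland genes summed to 270058 and 270113 CPM, against 6312 to 38006 CPM in the other 7. Mature neuron markers were present in every mouse, their 11 genes summing to between 11652 CPM in Ms4a cluster knockout mouse 2 and 14683 CPM in wild-type mouse 2. The 21 Ms4a genes summed to 0 counts in each Ms4a cluster knockout mouse, and Ms4a6c itself had 0, 2.35 and 2 expected counts in the Ms4a6c knockout mice against 53.95, 90.34 and 81.53 in the wild type. The replicate numbers of the labels name separate samples, so a p-value here measures the spread between 3 samples a group. In whole tissue, fewer cells of a type and less RNA per cell cannot be told apart.

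No member passed an adjusted p of 0.05 in edgeR's quasi-likelihood test, in any of the 3 comparisons. In the Ms4a cluster knockout against the wild type 0 of 7 members passed, where 0.0258% of all tested genes did. In the Ms4a6c knockout against the wild type 0 of 7 passed, where 0.435% of all tested genes did. Between the knockouts 0 of 7 passed, against 0.443% of tested genes. At an unadjusted p under 0.05 the count was 1 member, Fos, in each knockout against the wild type, where 4.93% of all genes passed for the cluster knockout and 10.5% for the Ms4a6c knockout, and 0 members between the knockouts, where 9.38% passed. DESeq2 also called 0 of the 7 in each comparison. Over all genes DESeq2 called 18 in the cluster knockout, 345 in the Ms4a6c knockout and 271 between the knockouts. The median log2 fold change over the 7 was -0.05 in the cluster knockout and -0.08 in the Ms4a6c knockout, beside 0.01 and -0.002 over all tested genes.

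**Figure D1:**
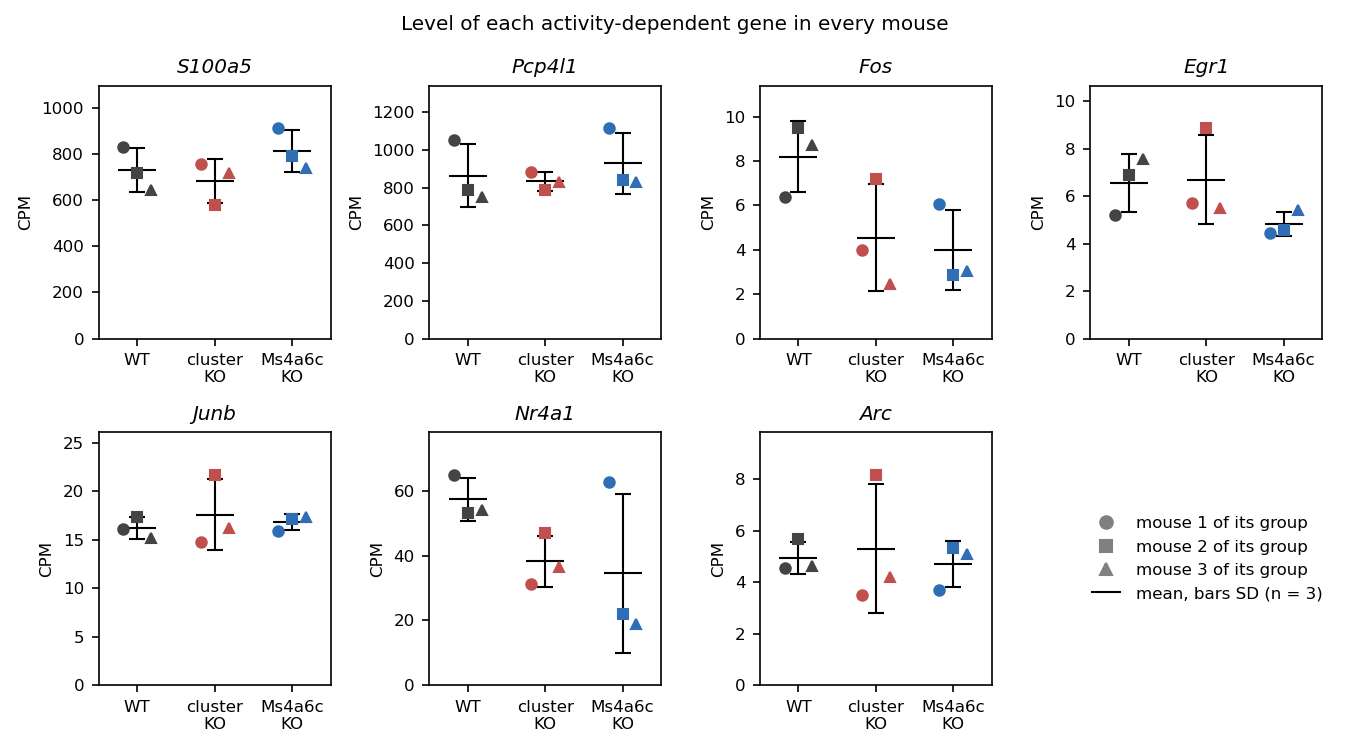
Level in CPM (vertical axis, from 0) of each of the 7 genes in every mouse, by genotype, with circle, square and triangle for mouse 1, 2 and 3 of a group, which the labels do not link between groups, and the mean with SD (n = 3). As the ratio of highest to lowest value, Fos and Nr4a1 had the widest ranges, 2.46 to 9.49 CPM and 18.9 to 65.1 CPM.

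Per kilobase of exon, the slow markers stood far above the immediate early genes. S100a5 had a mean of 1723 CPM per kb over the 9 mice and Pcp4l1 of 555 CPM per kb. Nr4a1 was the highest immediate early gene at 12.4 CPM per kb, followed by Junb at 7.33, Fos at 2.37, Arc at 1.63 and Egr1 at 1.34. The ranges over the 9 mice of S100a5 (1338 to 2116 CPM per kb) and Pcp4l1 (474 to 707 CPM per kb) did not overlap each other or those of the immediate early genes. Nr4a1, from 5.37 to 18.6 CPM per kb, overlapped Junb, from 6.42 to 9.44. Both lay above Fos, Arc and Egr1, which overlapped each other at 1.04 to 4.03, 1.15 to 2.67 and 0.996 to 1.98 CPM per kb.

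S100a5 (ENSMUSG00000001023.10, chr3:90608523-90611780, plus strand, GRCm38) was at 834, 720 and 646 CPM in the wild-type mice, at 757, 578 and 717 CPM in the Ms4a cluster knockout mice and at 914, 792 and 739 CPM in the Ms4a6c knockout mice. Each genotype spanned a range that overlapped the others. The lowest value was in the gland-rich Ms4a cluster knockout mouse 2, while the gland-rich wild-type mouse 1 had the highest value of the wild type. The log2 fold change was -0.10 with a standard error of 0.13 in the cluster knockout against the wild type and 0.15 with a standard error of 0.13 in the Ms4a6c knockout, with adjusted p of 0.999 and 0.738 by edgeR. Without both gland-rich libraries, a choice made after seeing the data, the difference of the cluster knockout turned to 0.11. Between the knockouts S100a5 was lower in the cluster knockout by a log2 fold change of -0.25, whose 95% interval ran from -0.55 to 0.05 (adjusted p = 0.603, edgeR).

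Pcp4l1 (ENSMUSG00000038370.6, chr1:171173262-171196268, minus strand) varied over the mice much as S100a5 did. Its level was 1053, 789 and 748 CPM in the wild-type mice, 882, 785 and 831 CPM in the Ms4a cluster knockout mice and 1115, 842 and 831 CPM in the Ms4a6c knockout mice. The groups overlapped, and 2 mice stood above the rest, the gland-rich wild-type mouse 1 and Ms4a6c knockout mouse 1. The log2 fold change against the wild type was -0.05 (95% interval -0.39 to 0.29) in the cluster knockout and 0.11 (95% interval -0.24 to 0.45) in the Ms4a6c knockout. The direction in the cluster knockout turned to 0.12 without wild-type mouse 1, and in the Ms4a6c knockout it turned to -0.05 without Ms4a6c knockout mouse 1.

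Both markers are made by mature neurons, so each was also set against the 11 mature neuron markers of the same mouse. S100a5 amounted to 5.32% ± 1.04 (SD, n = 3) of their summed CPM in the wild type, 5.16% ± 0.199 in the cluster knockout and 5.71% ± 0.719 in the Ms4a6c knockout. Pcp4l1 amounted to 6.29% ± 1.67 in the wild type, 6.32% ± 0.368 in the cluster knockout and 6.52% ± 1.25 in the Ms4a6c knockout. Wild-type mouse 1 and Ms4a6c knockout mouse 1 were again the 2 highest for both genes, at 6.51% and 6.53% for S100a5 and at 8.22% and 7.97% for Pcp4l1. Two-sided exact permutation tests of the log2 ratio gave adjusted p = 1 for both genes in all 3 comparisons, the unadjusted values lying between 0.2 and 1, and 3 mice against 3 cannot give a p below 0.1.

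The promoters of the 2 slow markers are shown because these genes moved together between mice. They are the 250 bases before the RefSeq transcription start in GRCm38.p6, chr3:90608272-90608521 on the plus strand for S100a5 and chr1:171196269-171196518 on the minus strand for Pcp4l1, with capitals reserved for TGACG or its complement CGTCA, the core of the cAMP response element to which CREB binds.
S100a5: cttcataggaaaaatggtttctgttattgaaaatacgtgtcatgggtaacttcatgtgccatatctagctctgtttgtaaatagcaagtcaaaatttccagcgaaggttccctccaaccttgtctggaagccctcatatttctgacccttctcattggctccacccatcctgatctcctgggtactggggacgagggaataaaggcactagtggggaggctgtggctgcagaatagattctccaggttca
Pcp4l1: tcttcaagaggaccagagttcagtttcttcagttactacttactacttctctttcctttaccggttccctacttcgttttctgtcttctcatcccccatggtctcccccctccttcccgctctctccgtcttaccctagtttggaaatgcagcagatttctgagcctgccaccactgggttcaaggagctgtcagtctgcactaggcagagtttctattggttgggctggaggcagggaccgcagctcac
Neither stretch held the core on either strand, while 17.8% of all 32851 promoters of this length in the table did. G and C made up 46.0% of the bases in S100a5 and 51.6% in Pcp4l1, against a median of 52.4% over all promoters.

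Fos (ENSMUSG00000021250.13, chr12:85473890-85477273, plus strand), which pairs with Jun proteins to form the AP-1 transcription factor, showed the largest difference from the wild type among the 7 genes. It was at 6.40, 9.49 and 8.70 CPM in the wild-type mice, at 4.01, 7.18 and 2.46 CPM in the Ms4a cluster knockout mice and at 6.07, 2.85 and 3.06 CPM in the Ms4a6c knockout mice. All 3 Ms4a6c knockout mice lay below all 3 wild-type mice, while Ms4a cluster knockout mouse 2 reached into the wild-type range. The log2 fold change was -1.02 with a standard error of 0.38 (95% interval -1.88 to -0.16) in the Ms4a6c knockout, with adjusted p = 0.385 by edgeR. In the cluster knockout it was -0.90 with a standard error of 0.39 (95% interval -1.76 to -0.03), with adjusted p = 0.968 by edgeR. With single mice left out the latter ran from -1.34, without Ms4a cluster knockout mouse 2, to -0.58, without Ms4a cluster knockout mouse 3. Without both gland-rich libraries it was -1.49 with adjusted p = 0.364 by edgeR. Both knockouts share the same wild-type mice, and the knockouts differed from each other by a log2 fold change of 0.12 (95% interval -0.76 to 1.005). The gene had 46 to 171 expected counts a mouse, for which counting alone gives a coefficient of variation of 8.76% in the wild type and 12.5% in the Ms4a6c knockout, against measured values of 19.6% and 45.1%.

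Nr4a1 (ENSMUSG00000023034.7, chr15:101254269-101274795, plus strand) encodes an orphan nuclear receptor that is induced by cAMP and calcium. Its level was 65.1, 53.1 and 54.1 CPM in the wild-type mice, 31.2, 46.9 and 36.6 CPM in the Ms4a cluster knockout mice and 62.96, 22.1 and 18.9 CPM in the Ms4a6c knockout mice. The cluster knockout mice all lay below the wild type, and the Ms4a6c knockout split into mouse 1 within the wild-type range and mice 2 and 3 below every other mouse. The log2 fold change was -0.59 with a standard error of 0.38 in the cluster knockout (adjusted p = 0.971, edgeR) and -0.71 with a standard error of 0.38 in the Ms4a6c knockout (adjusted p = 0.542, edgeR). Mouse 1 of the Ms4a6c knockout made this difference smaller. Without this mouse the log2 fold change was -1.49 with adjusted p = 0.00772 by edgeR. Then 1 of 7 members passed, when 121 of all genes passed against 101 with all mice. Without Ms4a6c knockout mouse 2 or 3 the log2 fold change was -0.48 and -0.42.

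Ms4a6c knockout mouse 1 also differed from mice 2 and 3 of its group in other RNA. Its 5 red cell genes summed to 814 CPM and its 4 neutrophil genes to 63.3 CPM, within the wild-type ranges of 665 to 913 CPM and 56.7 to 80.4 CPM. In mice 2 and 3 the red cell genes summed to 1932 and 2346 CPM and the neutrophil genes to 147 and 207 CPM. Immature neuron genes summed to 999 CPM in Ms4a6c knockout mouse 1, against 820 and 852 CPM in mice 2 and 3. Fibroblast genes summed to 4148 CPM in mouse 1, against 2901 and 3228 CPM in mice 2 and 3. In the cluster knockout the red cell sum was highest in the gland-rich mouse 2, at 2058 CPM, which had the highest Nr4a1 and Fos of its group. The neutrophil sums of the cluster knockout were 159, 78.8 and 66.6 CPM in mice 1, 2 and 3, highest in the mouse with the lowest Nr4a1. All 5 red cell genes were higher in the Ms4a6c knockout than in the wild type at an unadjusted p under 0.05 in edgeR. Of all 23225 tested genes 10.5% passed there, 1241 of them higher. At the adjusted threshold of edgeR 0 of the 5 passed, where 0.435% of all tested genes did. The part of red cell, neutrophil, immature neuron and fibroblast RNA in the Fos and Nr4a1 values was not tested.

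The promoters of Fos and Nr4a1 are shown because these 2 genes differed most from the wild type. They are the 250 bases before the RefSeq start, chr12:85473640-85473889 and chr15:101266596-101266845, both on the plus strand of GRCm38.p6, with the core TGACG or CGTCA in capitals.
Fos: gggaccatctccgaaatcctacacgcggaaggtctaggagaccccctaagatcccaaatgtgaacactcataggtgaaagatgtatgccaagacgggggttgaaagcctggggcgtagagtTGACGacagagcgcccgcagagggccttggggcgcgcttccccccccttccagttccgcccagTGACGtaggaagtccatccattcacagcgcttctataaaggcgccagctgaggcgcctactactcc
Nr4a1: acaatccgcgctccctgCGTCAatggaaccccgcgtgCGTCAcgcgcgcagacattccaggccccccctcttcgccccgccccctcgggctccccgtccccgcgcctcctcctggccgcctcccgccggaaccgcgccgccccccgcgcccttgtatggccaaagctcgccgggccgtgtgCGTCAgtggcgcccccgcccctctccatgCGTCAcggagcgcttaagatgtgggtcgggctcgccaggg
The core occurred at 2 places in Fos, of which the nearer began 66 bases before the start, and at 4 places in Nr4a1, of which the nearest began 40 bases before it. Junb held it at 1 place, 106 bases before its start. Of the 5 members found in the promoter table these 3 had the core, against 17.8% of all promoters, and 0 of the 5 had the AP-1 site TGANTCA, which 6.75% of all promoters held. The stretch of Nr4a1 lies before its downstream start, inside the gene as annotated from its most upstream exon, and G and C made up 74.4% of it. These matches describe the letters of the stretches alone.

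Egr1 (ENSMUSG00000038418.7), a zinc finger transcription factor, was at 5.19, 6.88 and 7.57 CPM in the wild-type mice. It was at 5.71, 8.87 and 5.51 CPM in the Ms4a cluster knockout mice and at 4.47, 4.59 and 5.42 CPM in the Ms4a6c knockout mice. The Ms4a6c knockout mice lay below every cluster knockout mouse, and 1 of them, mouse 3, reached above the lowest wild-type mouse. The log2 fold change of the Ms4a6c knockout against the wild type was -0.45 with a 95% interval of -0.93 to 0.04, and its adjusted p was 0.503 by edgeR. The cluster knockout was at 0.01 against the wild type, and at 0.46 against the Ms4a6c knockout (95% interval -0.03 to 0.94, adjusted p = 0.561, edgeR). The latter was 0.22 without Ms4a cluster knockout mouse 2, and also without both gland-rich libraries.

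Junb (ENSMUSG00000052837.6, chr8:84974484-84978718, minus strand), a Jun family partner of Fos, was the steadiest of the immediate early genes. It was at 16.1, 17.4 and 15.1 CPM in the wild-type mice, at 14.8, 21.7 and 16.2 CPM in the Ms4a cluster knockout mice and at 15.9, 17.1 and 17.4 CPM in the Ms4a6c knockout mice. The highest value came from Ms4a cluster knockout mouse 2 and the groups overlapped. The 95% interval of the log2 fold change ran from -0.19 to 0.40 in the cluster knockout and from -0.25 to 0.35 in the Ms4a6c knockout. The end of Junb overlaps that of Prdx2 on the opposite strand, and the libraries were directional.

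Arc (ENSMUSG00000022602.14, chr15:74669083-74672570, minus strand), a regulator of synaptic receptor traffic, was at 4.55, 5.66 and 4.61 CPM in the wild-type mice. It was at 3.51, 8.17 and 4.21 CPM in the Ms4a cluster knockout mice and at 3.69, 5.33 and 5.10 CPM in the Ms4a6c knockout mice. The groups overlapped, with Ms4a cluster knockout mouse 2 highest again. The log2 fold change was 0.07 (95% interval -0.60 to 0.73) in the cluster knockout and -0.08 (95% interval -0.73 to 0.58) in the Ms4a6c knockout. Both intervals span values of either sign. The gene had 64 to 102 expected counts a mouse. In the cluster knockout its coefficient of variation was 47.5%, against 11.3% from counting alone.

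**Figure D2:**
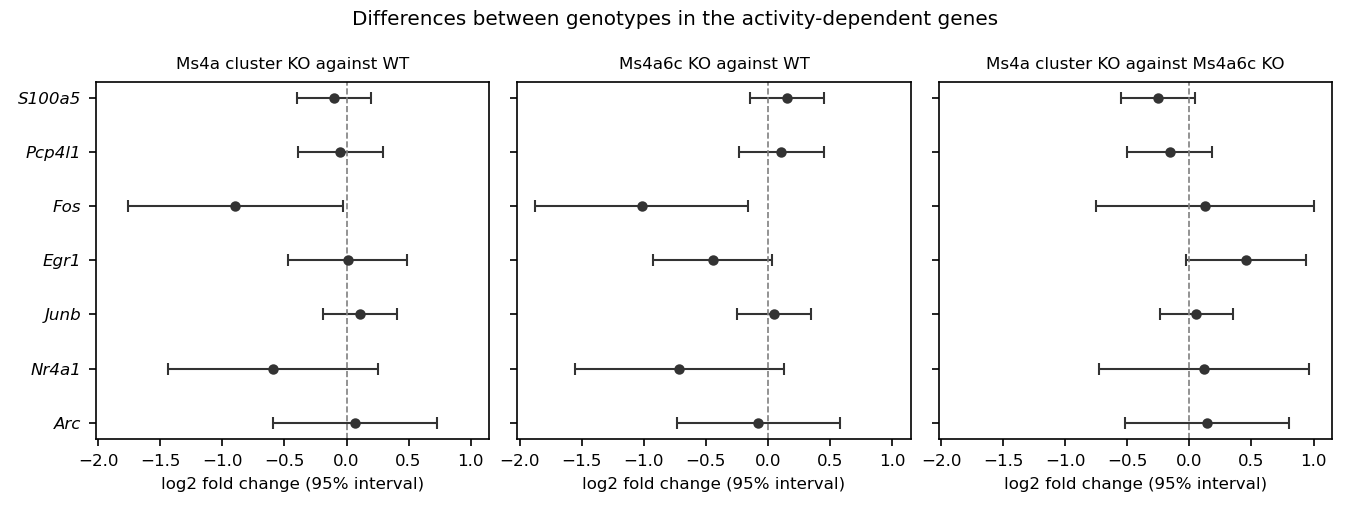
Log2 fold change (horizontal axis) with its 95% interval from edgeR for the 7 genes in the 3 comparisons, where values below 0 are lower in the genotype named before "against". The interval of Fos lies below 0 in both knockouts against the wild type, from -1.76 to -0.03 and from -1.88 to -0.16. Those of all other genes shown include 0 in all panels. The intervals are not adjusted for the number of genes tested, and the adjusted p of Fos was 0.968 and 0.385 by edgeR.

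By the ranges of single mice, 1 of 7 members, Nr4a1, did not overlap between the cluster knockout and the wild type, where 9.86% of all tested genes did not. In the Ms4a6c knockout against the wild type it was 1 of 7, Fos, against 18.3% of all tested genes, and between the knockouts 1 of 7, Egr1, against 16.0%.

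The 7 genes varied unequally between mice of a genotype. The biological coefficient of variation, edgeR's estimate of the spread within groups beyond counting error, was 33.6% for Fos and 32.6% for Nr4a1. Of the 2969 genes within a like level of Nr4a1, 99.4% had a lower value, and of the 1941 genes near Fos 93.5% did. Arc had 25.8%, Egr1 19.3%, Pcp4l1 18.3%, S100a5 16.6% and Junb 12.6%. Of the genes of like level 86.2%, 70.4%, 85.1%, 84.6% and 73.0% had a lower value, in the same order. Over all 9 mice, genotypes pooled, the highest exceeded the lowest by 3.86-fold for Fos, 3.45-fold for Nr4a1, 2.33-fold for Arc and 1.99-fold for Egr1. For S100a5 it was 1.58-fold, for Pcp4l1 1.49-fold and for Junb 1.47-fold. Within a genotype it was at most 2.92-fold for Fos, in the cluster knockout, and 3.34-fold for Nr4a1, in the Ms4a6c knockout.

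Most pairs of members were not correlated at the adjusted threshold across the 9 mice. Pearson's r of log2 CPM was computed for all 21 pairs, with exact permutation tests adjusted over the 21 pairs, and 3 pairs passed an adjusted p of 0.05. S100a5 and Pcp4l1 had r = 0.85 (p = 0.00387, adjusted p = 0.0271, exact permutation) and Spearman's rho of 0.92 (p = 0.00131, adjusted p = 0.0213, exact permutation). Their r was 0.87 without the 2 mice farthest from the median of S100a5, 0.85 with each genotype's mean subtracted, 0.97 with plain library sizes and 0.94 in the 7 mice without the gland-rich libraries. In that set of 7 mice no pair passed the adjusted threshold. Plain library sizes leave the gland-rich libraries uncorrected, which shifts the other genes together there. Under them r of S100a5 and Junb went from -0.56 to 0.58, so the 0.97 is no separate check of the pair.

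Junb and Arc had r = 0.93 (p = 0.00102, adjusted p = 0.0107, exact permutation) and rho = 0.83 (p = 0.00827, adjusted p = 0.0434, exact permutation). Their r was 0.70 without the 2 mice farthest from the median of Junb, 0.97 with genotype means subtracted, 0.72 with plain library sizes (adjusted p = 0.179, exact permutation) and 0.81 without the gland-rich libraries (adjusted p = 0.188, exact permutation). Among the 16536 other genes with a mean CPM of at least 1, Arc ranked 3 by its r with Junb. The point farthest from the rest was Ms4a cluster knockout mouse 2, which is gland-rich.

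S100a5 and Egr1 ran in opposite directions, with r = -0.92 (p = 0.000389, adjusted p = 0.00816, exact permutation) and rho = -0.90 (p = 0.00203, adjusted p = 0.0213, exact permutation). Their r was -0.83 without the 2 mice farthest from the median of S100a5, -0.93 with genotype means subtracted and -0.87 without the gland-rich libraries. It was 0.04 with plain library sizes, so the relation was lost without TMM scaling.

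Fos and Nr4a1 had r = 0.78 (p = 0.0152, adjusted p = 0.0797, exact permutation) and rho = 0.62 (p = 0.0857, adjusted p = 0.300, exact permutation), which missed the threshold. Their r was 0.83 without the 2 mice farthest from the median of Fos, 0.64 with genotype means subtracted and 0.76 with plain library sizes. The immediate early genes did not vary as a block: over their 10 pairs r ran from -0.07 for Junb and Nr4a1 to 0.93 for Junb and Arc.

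**Figure D3:**
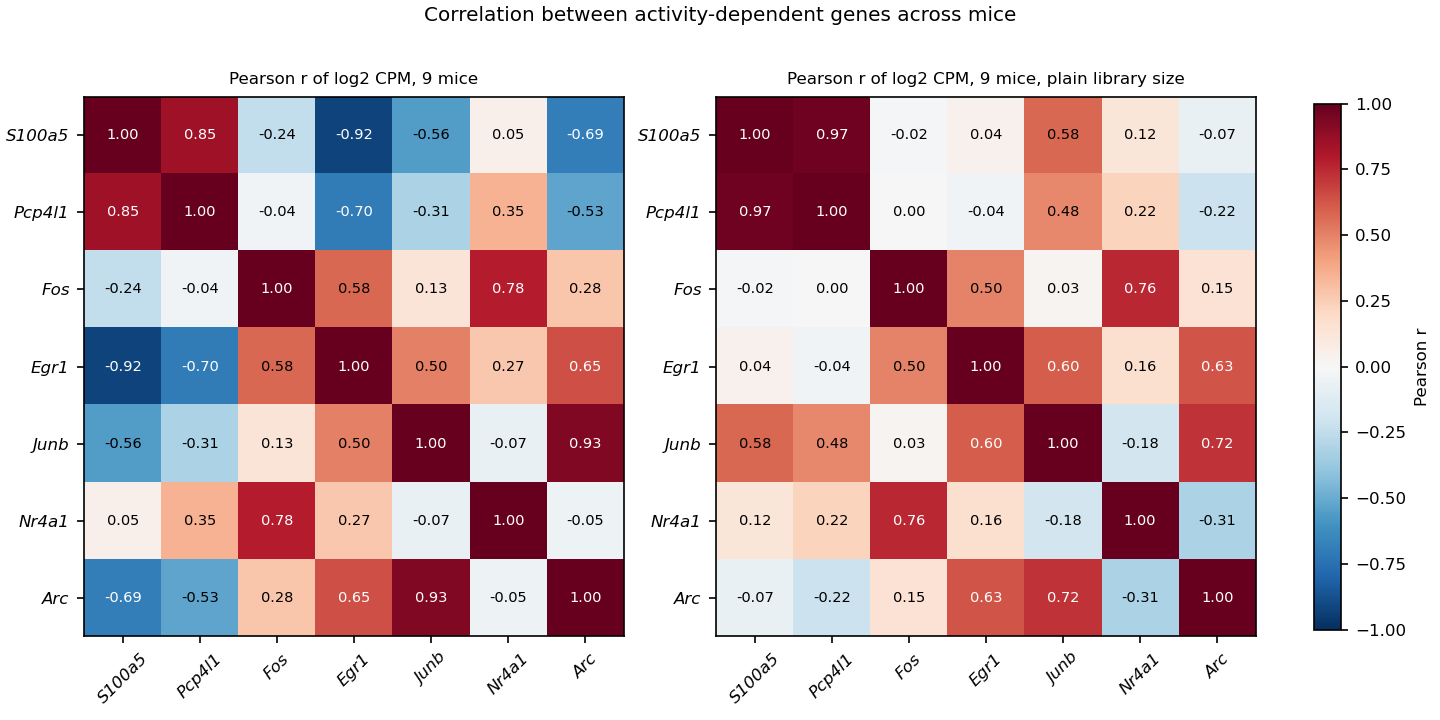
Pearson r (color and printed value) of log2 CPM for every pair of the 7 genes over the 9 mice, with TMM-scaled libraries at left and plain library sizes at right. S100a5 and Pcp4l1 have r of 0.85 and 0.97, and Fos and Nr4a1 of 0.78 and 0.76. S100a5 and Egr1 go from -0.92 to 0.04, and S100a5 and Junb from -0.56 to 0.58. Plain library sizes leave the gland-rich libraries uncorrected.

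**Figure D4:**
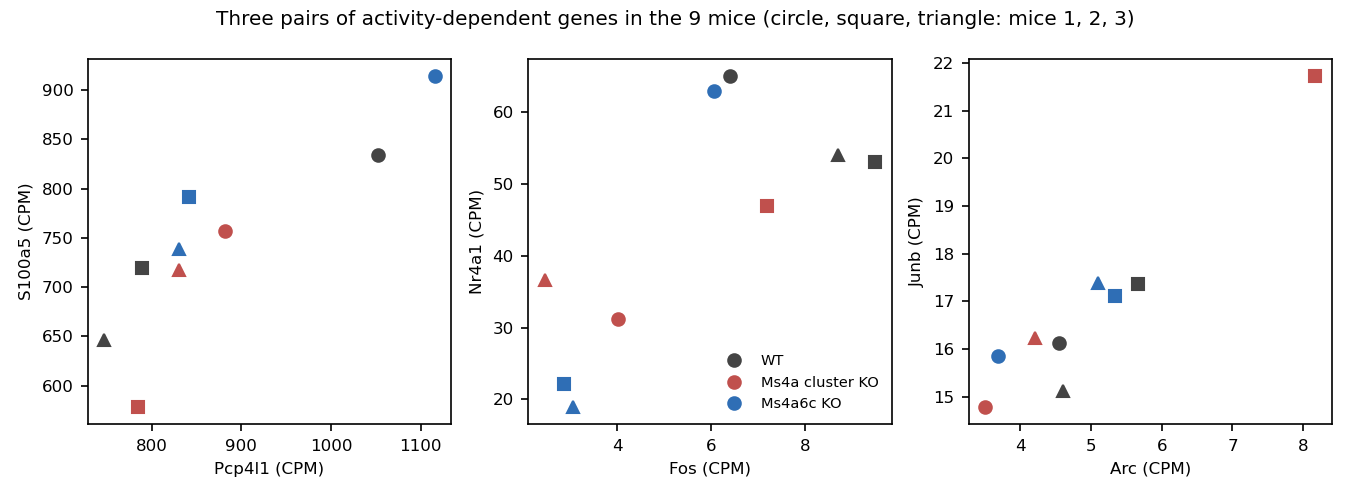
CPM of 3 pairs of genes in the 9 mice, each point 1 mouse, with color for genotype and circle, square and triangle for mouse 1, 2 and 3 of a group, on axes that do not start at 0. Wild-type mouse 1 and Ms4a6c knockout mouse 1 stand at the upper right for the slow markers, and Ms4a cluster knockout mouse 2 stands alone at the upper right for Junb and Arc.

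The 5 genes most like S100a5 over the 9 mice were Slc17a6, a vesicular glutamate transporter (r = 0.95), Mat1a, Tmtc2, Nxnl2 and Tubgcp6 (r of 0.92 to 0.93), and Pcp4l1 ranked 76 among the 16536 genes compared. The 5 most like Fos were Psma7 (r = 0.97), Ddx3x, Exoc5, Ugcg and Tmem185b (r of 0.95 to 0.96), and Nr4a1 ranked 231. These r values are the highest of many and describe 9 mice.

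Other immediate early genes were taken from a list of 40, of which 38 could be tested. In edgeR's test 0 of the 38 passed an adjusted p of 0.05 in any comparison. Of all tested genes 0.0258% passed in the cluster knockout, 0.435% in the Ms4a6c knockout and 0.443% between the knockouts. At an unadjusted p under 0.05 the cluster knockout had 1 higher and 6 lower and the Ms4a6c knockout 1 higher and 10 lower. Over all 23225 tested genes these counts were 522 higher and 623 lower, or 4.93% in all, in the cluster knockout and 1241 higher and 1192 lower, or 10.5%, in the Ms4a6c knockout. Their median log2 fold change was -0.09 in the cluster knockout and -0.18 in the Ms4a6c knockout, beside 0.01 and -0.002 over all tested genes. Between the knockouts 2 were higher and 1 lower at an unadjusted p under 0.05, where 9.38% of all tested genes passed. The highest in level were Jund and Ppp1r15a. The following 4 were chosen after their values were seen. Dusp1, a phosphatase that ends MAP kinase signals, was at 52.5, 57.9 and 53.4 CPM in the wild type and at 43.3, 38.5 and 45.7 CPM in the Ms4a6c knockout, which did not overlap (log2 fold change -0.36, adjusted p = 0.206, edgeR). Sik1, a kinase induced by cAMP, had a log2 fold change of -0.62 in the Ms4a6c knockout (adjusted p = 0.236, edgeR), and Ccn1, a matricellular protein, of -0.70 (adjusted p = 0.250, edgeR). Jun went the other way, at 69.8, 75.6 and 76.0 CPM in the wild type against 99.1, 77.1 and 97.8 CPM in the cluster knockout (log2 fold change 0.31, adjusted p = 0.968, edgeR).

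Of 8 further symbols for slow activity-linked genes 6 were tested. The adjusted threshold of edgeR was passed by 0 of these in the cluster knockout, in the Ms4a6c knockout and between the knockouts. Of all tested genes 0.0258%, 0.435% and 0.443% passed it, in that order. At an unadjusted p under 0.05 there were 2, 3 and 1 in the same order, where 4.93%, 10.5% and 9.38% of all tested genes passed. Kirrel2, an adhesion molecule of olfactory axons that rises with activity, was highest in Ms4a6c knockout mouse 1, at 1617 CPM, with 1034 and 1044 CPM in mice 2 and 3 and 1061, 814 and 838 CPM in the wild type. Calb2, the calcium buffer calretinin, was the next highest in level. Epha5 and Efna5, an ephrin receptor and an ephrin, were singled out after their values were seen. Epha5 was at 113, 91.7 and 98.6 CPM in the Ms4a6c knockout against 75.4, 46.8 and 47.4 CPM in the wild type, which did not overlap (log2 fold change 0.84, standard error 0.18, adjusted p = 0.100, edgeR). It passed with DESeq2 (adjusted p = 0.000389), and in edgeR without wild-type mouse 1 (log2 fold change 1.10, adjusted p = 0.00452), without both gland-rich libraries (adjusted p = 0.00274), with no filter (adjusted p = 0.0162) and with the mature neuron covariate (adjusted p = 0.0344). Efna5 was at 35.2, 43.4 and 46.6 CPM in the wild type, above all 6 knockout mice, which lay between 26.7 and 33.7 CPM (log2 fold change -0.47 in the cluster knockout and -0.36 in the Ms4a6c knockout, adjusted p = 0.784 and 0.247, edgeR). In the Ms4a6c knockout Efna5 passed without wild-type mouse 1 (adjusted p = 0.0488, edgeR) and without both gland-rich libraries (log2 fold change -0.47, adjusted p = 0.00973, edgeR).

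Among 29 genes of the signal path to the immediate early genes (kinases, CREB and SRF factors) 1 passed in the Ms4a6c knockout, where 0.435% of all tested genes passed, and 0 in the cluster knockout, where 0.0258% did. Camk2d, a calcium and calmodulin dependent kinase and also the highest of the list in level, was at 173, 181 and 181 CPM in the Ms4a6c knockout against 266, 292 and 288 CPM in the wild type (log2 fold change -0.66, standard error 0.08, adjusted p = 0.00378, edgeR). Among 13 genes of odor transduction 1 passed, against the same 0.435% of all tested genes, Gng13, the gamma subunit of the olfactory G protein, at 179, 198 and 203 CPM in the Ms4a6c knockout against 347, 371 and 359 CPM in the wild type (log2 fold change -0.89, adjusted p = 0.00121, edgeR). Both were also lower in the Ms4a6c knockout than in the cluster knockout, with adjusted p of 0.0262 for Camk2d and 0.00073 for Gng13 by edgeR. That of Camk2d was lost without wild-type mouse 2 or 3, Ms4a cluster knockout mouse 1 or 3 or any of the Ms4a6c knockout mice, when the adjusted p ran from 0.0555 to 0.126 in edgeR. Among 13 heat shock genes, included as signs of handling stress, 0 passed edgeR's adjusted threshold in any comparison. Of all tested genes 0.0258% passed it in the cluster knockout, 0.435% in the Ms4a6c knockout and 0.443% between the knockouts. At an unadjusted p under 0.05 there was 1 lower in the cluster knockout, 2 higher in the Ms4a6c knockout and 3 lower in the cluster knockout than in the Ms4a6c knockout, where 4.93%, 10.5% and 9.38% of all tested genes passed.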

How the data were processed

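Directional libraries were made by the authors from poly-A RNA. The authors aligned paired-end reads with STAR 2.6.1, quantified genes with RSEM 1.3.1 and deposited unnormalized expected counts for 55291 genes of the mouse, with 3 mice in each of 3 genotypes. The tools are from the submitters' processing notes, which also list DESeq2 1.30.1 and R 4.0.0.

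Expected counts were rounded, and 23225 genes whose total over the 9 mice reached 10 counts were tested in edgeR 4.0.16 (R 4.3.3) by the quasi-likelihood test in one model of 9 mice, with TMM scaling and Benjamini-Hochberg adjustment over all of them. DESeq2 1.42.0 was an alternative. The procedure was tested on simulated data. Log2 CPM used a prior count of 2. Permutation tests were two-sided and exact (Python 3.11.15, numpy 2.4.6). Positions and exon lengths came from GENCODE M21, and promoters from RefSeq GRCm38.p6. Genes named were the members, list genes with an adjusted p under 0.05 and the 5 genes most like S100a5 and Fos, and the rule also took the 2 genes of highest CPM of each list, of which those of marker lists are not printed. Alternatives were other size factors and filters, 2 genotypes alone, a replicate block, a mature neuron covariate and leaving out each mouse. The members and lists were chosen with earlier results of these data known. Reads carry no molecular identifiers. The coefficients of variation given for counting alone cover counting error only. The intervals of the fold changes come from edgeR's model and also include the spread between mice.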

Additional observations from a re-analysis of the deposited data

How the results depend on the processing

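Of 357 values of the 21 member fold changes under 17 other settings, 321 kept their direction and side of the threshold, 35 turned direction and 1 passed. The 11 fold changes that turned were all at most 0.143 on the log2 scale. No member was called under any setting but 1, and leaving out 1 mouse gave 0 to 1 members called in the Ms4a6c knockout, the 1 being Nr4a1 without Ms4a6c knockout mouse 1. For Fos, at 46 to 171 expected counts, the spread between mice exceeded the counting error, and the part of depth was not tested. The causes of the changes below were not tested.

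Without both gland-rich libraries the cluster knockout against the wild type gave log2 fold changes of 0.11 for S100a5, 0.16 for Pcp4l1, -0.36 for Egr1, -0.068 for Junb and -0.41 for Arc, and against the Ms4a6c knockout -0.34 for Fos, -0.12 for Junb, -0.061 for Nr4a1 and -0.28 for Arc. With the mature neuron sum as a covariate the values were -0.078 for Egr1 and -0.17 for Arc against the wild type, and -0.10 for Fos, -0.082 for Junb, -0.15 for Nr4a1 and -0.17 for Arc between the knockouts. DESeq2 gave -0.001 for Egr1 in the cluster knockout.

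Leaving out each mouse in turn moved the log2 fold change of the cluster knockout against the wild type from -0.18 to 0.007 for S100a5, -0.15 to 0.12 for Pcp4l1, -0.23 to 0.13 for Egr1, -0.065 to 0.22 for Junb, -0.36 to 0.30 for Arc and -0.039 to 0.13 for Gng13. In the Ms4a6c knockout it ran from -0.046 to 0.28 for Pcp4l1 and -0.18 to 0.076 for Arc. Between the knockouts it ran from -0.33 to 0.58 for Fos, -0.11 to 0.17 for Junb, -0.17 to 0.89 for Nr4a1, -0.28 to 0.38 for Arc and -0.32 to 0.042 for Kirrel2.

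Relative to mature neuron markers, the log2 ratio of S100a5 in the cluster knockout was 0.16 without both gland-rich libraries and ran from -0.13 to 0.13 with each mouse left out. That of Pcp4l1 ran from -0.074 to 0.25 in the cluster knockout, -0.086 to 0.28 in the Ms4a6c knockout and -0.11 to 0.12 between the knockouts. The count of correlated pairs fell from 3 to 1 with plain library sizes, under which r of S100a5 and Egr1 was 0.043, and to 0 without the gland-rich libraries.

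The count of called signal path genes between the knockouts, 1, fell to 0 with the 2 genotypes alone and with the replicate block, and ran from 0 to 1 with each mouse left out. Deviations of same-numbered mice correlated at -0.30 to 0.04. The gland-rich libraries, wild-type mouse 1 and Ms4a cluster knockout mouse 2, carry different numbers and enter these values. The values therefore cannot decide whether the numbers pair the mice. The replicate block gave 0 members called in all 3 comparisons, brought Epha5 in the Ms4a6c knockout from an adjusted p of 0.100 to 0.0488 in edgeR, and took all calls from 101 to 71 in the Ms4a6c knockout, from 6 to 2 in the cluster knockout and from 103 to 75 between the knockouts. DESeq2 called 345, 18 and 271 genes, and without the gland-rich libraries edgeR called 350, 8 and 147.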
